A study of Mus musculus with 2 samples.

Results

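Immediate early genes are the first genes that a cell transcribes after a stimulus. The 10 described here, Fos, Fosb, Jun, Junb, Egr1, Egr2, Atf3, Ier2, Ier3 and Dusp1, were chosen by name, and all 10 were found among the probes by symbol or by accession. They were set against the 26066 genes detected in posterior tissue of mouse embryos of 13 somites. Embryos heterozygous for Cdx2 and lacking Cdx4 (Cdx2+/-Cdx4-/-) were compared with wildtype embryos. Cdx2 and Cdx4 encode homeobox factors that the posterior embryo needs to keep elongating. For each genotype the tissue of 7 embryos was pooled, and mutant and wildtype RNA were hybridised together on 2 dual-colour arrays, the second labelled as a dye swap. The mutant pool was labelled with Cy5 on array 1 and with Cy3 on array 2. The labels do not say whether both arrays carried the same extracts. They were taken here as 1 pool per genotype, so each error below is the SD of 2 arrays, read as technical, and no p-value between genotypes is given.

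Fos, Fosb, Jun and Junb encode subunits of AP-1, a dimer of leucine zipper proteins that binds DNA. Egr1 and Egr2 encode zinc finger factors, and Atf3 encodes a leucine zipper factor of the CREB and ATF group that is induced by many stresses. Ier2 and Ier3 are small response genes without a classical DNA-binding domain, and Dusp1 encodes a phosphatase that switches off MAP kinases. Such genes are known to respond within minutes to growth factors acting through ERK, to serum, to stress and to the handling of tissue. Many carry sites for serum response factor or for CREB near their start. In the tailbud, FGF signalling is known to keep ERK active, and Egr2 is best known from segments of the hindbrain.

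Many spots on these arrays were close to the negative controls in brightness. The median signal of gene spots lay between 146 and 159 scanner units in the 4 channels, against medians between 91.3 and 113 for the 314 negative control spots. The scanner software's flag for a spot well above background was carried by 12.4% and 8.92% of the negative controls in Cy3, and by 1.27% and 0% in Cy5. Detected here means that 1 genotype carried that flag on both arrays. The SD between arrays, pooled over detected genes, was 0.19 on the log2 scale, and across detected genes the log2 ratios of the arrays had a Pearson r of 0.07. Cdx4 was 5.75-fold lower in the mutant pool (log2 ratio -2.52 ± 0.12), in the direction of the genotype, while Cdx2 had -0.05 ± 0.09. Whether these probes lie inside the altered stretches of either gene was not examined.

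The DNA just upstream of 5 of the genes is shown as a description. Windows of 250 bases ending at the base before the transcription start came from RefSeq on GRCm38.p6 and matched 8 members by symbol; Egr1 and Ier2 did not match. Capitals mark matches on either strand to TGACGT, part of the cyclic AMP response element, or to TGACNTCA, which covers the full element and its known variant in the Jun promoter. Atf3 (chr1:191183334-191183583, minus strand) is shown as the member farthest from 0, Jun (chr4:95052223-95052472, minus strand), Junb (chr8:84978749-84978998, minus strand) and Dusp1 (chr17:26508473-26508722, minus strand) as the other members below 0 on both arrays, and Fos (chr12:85473640-85473889, plus strand) as the member for which the group is best known.
Atf3: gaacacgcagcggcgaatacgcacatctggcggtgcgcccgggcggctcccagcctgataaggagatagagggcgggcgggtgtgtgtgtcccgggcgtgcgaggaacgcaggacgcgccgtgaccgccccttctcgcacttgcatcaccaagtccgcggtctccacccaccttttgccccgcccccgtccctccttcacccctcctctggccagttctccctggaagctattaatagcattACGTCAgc
Jun: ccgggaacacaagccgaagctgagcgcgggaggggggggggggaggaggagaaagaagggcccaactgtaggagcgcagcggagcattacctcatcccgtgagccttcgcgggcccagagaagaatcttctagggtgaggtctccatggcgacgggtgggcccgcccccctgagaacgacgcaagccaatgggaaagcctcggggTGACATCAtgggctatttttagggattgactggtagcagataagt
Junb: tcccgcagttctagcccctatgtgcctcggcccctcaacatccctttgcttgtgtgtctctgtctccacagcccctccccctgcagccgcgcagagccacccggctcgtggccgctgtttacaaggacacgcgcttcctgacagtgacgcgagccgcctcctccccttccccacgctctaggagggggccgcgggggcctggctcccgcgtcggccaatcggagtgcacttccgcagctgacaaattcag
Dusp1: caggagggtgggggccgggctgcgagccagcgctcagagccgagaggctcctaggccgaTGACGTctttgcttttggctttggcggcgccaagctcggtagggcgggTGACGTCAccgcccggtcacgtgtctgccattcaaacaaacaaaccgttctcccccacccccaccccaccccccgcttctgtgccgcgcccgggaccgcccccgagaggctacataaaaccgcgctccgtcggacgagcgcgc
Fos: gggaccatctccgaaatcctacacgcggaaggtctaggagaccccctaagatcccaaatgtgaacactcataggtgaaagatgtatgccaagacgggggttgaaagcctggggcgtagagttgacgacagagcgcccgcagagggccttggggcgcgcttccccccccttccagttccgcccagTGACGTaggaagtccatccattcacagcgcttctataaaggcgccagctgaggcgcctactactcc
TGACGT was found in the windows of 4 of the 8 members, Fos, Egr2, Atf3 and Dusp1, and in 6.47% of all 32851 windows of this length in the table. Egr2 has 5 windows from alternative starts, and 3 overlapping ones held it, so the closer comparison is the 7.29% of the table's 27025 genes with a match in any window. The Junb window held none of the motifs searched. In Atf3 it lay at -8 to -3 from the start, read on the opposite strand, and in Fos at -66 to -61. Dusp1 held it at -191 to -186 and again inside a full TGACGTCA at -143 to -136, a motif present in 1.55% of all windows and in 1.77% of genes. Since TGACGTCA reads the same on both strands and contains TGACGT in each, these matches overlap. TGACNTCA was found in Jun, at -45 to -38, and in Dusp1, against 7.49% of all windows and 8.55% of genes. The CArG box, to which serum response factor binds, was found among the 8 in Egr2, in 4 of its 5 windows, against 1.62% of genes. Only these 250 bases were searched, so a window without a match does not mean that the gene lacks such a site. The AP-1 motif TGANTCA was found in none of the 8 and in 7.82% of genes. The motifs were picked after the windows had been read, and such sites are known near genes of this response. The shares are therefore no test of the members, and a match is a description of these letters. Of the 4 members with TGACGT, Atf3 and Dusp1 lay below 0 on both arrays, Fos above 0 on both, and Egr2 on both sides.

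**Figure D1:**
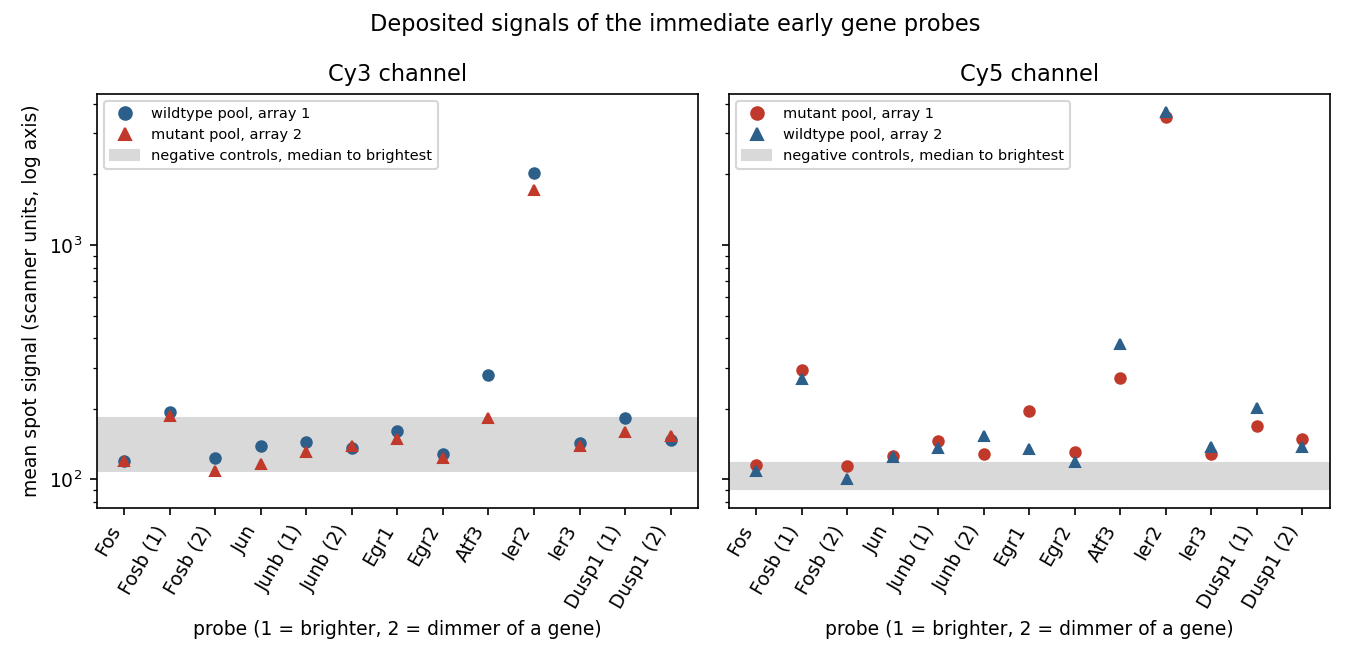
Deposited mean spot signals of the 13 probes of the 10 genes in scanner units on a log axis, with the Cy3 channel on the left and the Cy5 channel on the right; red is the mutant pool, blue the wildtype pool, circles array 1 and triangles array 2. The grey band runs from the lower of the arrays' median negative control signals to the brightest negative control spot in that dye. Ier2 stands far above the band in both dyes, Atf3 and the brighter Fosb probe stand above it, in Cy3 on array 2 only just, and most other probes lie inside it in Cy3.

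Atf3 had the lowest ratio of the 10 genes. Its probe, at chr1:191067752-191067811 in the files' coordinates, whose build they do not name, gave normalised levels of 188 in the mutant pool and 277 in the wildtype pool on array 1, and of 175 and 277 on array 2. Normalised levels are intensities after loess within each array and scaling between arrays, and contain the offset of 50 added in the background correction. Both mutant levels lay below both wildtype levels. The log2 ratio of mutant over wildtype was -0.56 on array 1 and -0.67 on array 2, a mean of -0.61 ± 0.08, or 1.53-fold lower. Genes of like brightness had a pooled SD between arrays of 0.15, so the mean stood 4.02 times that far from 0.

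Atf3 nevertheless fell just short of the size rule used here, which asks for at least 1.5-fold, 0.58 on the log2 scale, in the same direction on each array. It missed it on array 1 and met it on array 2. By the mean of both arrays it was past 1.5-fold, as were 0.364% of detected genes as lower, and no member was past it as higher (0.299% of detected genes). None of the 10 genes passed the rule on each array in either direction, against 0.441% of all detected genes (0.230% lower and 0.211% higher). A less strict rule of 1.3-fold on each array was met by Atf3 alone among the 10, and by 0.752% of detected genes as lower and 0.537% as higher. Of the detected genes, 81 had a lower mean ratio than Atf3, and 50, itself included, were at least as low on each array. The deposited p-value of the scanner software, which covers the error of 1 spot on 1 array, was 0.000647 for Atf3 on array 1 and 0.00635 on array 2. Both were under 0.01 with the mutant lower, as for 0.410% of detected genes, and no other member met that rule in either direction (0.322% of detected genes as higher). The raw signals show the same order within each dye: Cy3 read 279 for the wildtype pool on array 1 and 183 for the mutant pool on array 2, and Cy5 read 271 for the mutant pool and 377 for the wildtype pool.

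Ier2, which encodes a small nuclear protein of the growth factor response, stood farthest above the controls, and its levels in the pools lay close together. Its probe, at chr8:83933071-83933130 in the files' coordinates, read between 15.3 and 39.9 times the median of the negative controls in the 4 channels. The normalised levels were 2569 in the mutant and 2546 in the wildtype pool on array 1, and 2444 and 2638 on array 2. The levels of the pools overlapped. The log2 ratio was 0.01 on array 1 and -0.11 on array 2, and the mean of -0.05 ± 0.09 was smaller than its SD. Genes of like brightness had a pooled SD of 0.15. Median centring in place of loess spread the arrays to 0.52 and -0.79, opposite in sign, with a mean of -0.14.

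Fosb, an AP-1 subunit, was read by 2 probes that lie close together at chr7:10832850-10832909 and chr7:10833061-10833120 in the files' coordinates. The brighter probe exceeded every negative control spot in all 4 signals. It gave normalised levels of 208 in the mutant and 173 in the wildtype pool on array 1, and of 174 and 195 on array 2. The pools therefore changed places between the arrays, with log2 ratios of 0.27 and -0.16 and a mean of 0.05 ± 0.30. The dimmer probe had log2 ratios of -0.05 and -0.11, but it carried the flag on array 1 in both channels and on array 2 in neither.

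Fos, the partner of Jun in the AP-1 dimer, was barely above the controls. Its single probe gave normalised levels of 78.9 in the mutant and 75.3 in the wildtype pool on array 1, and of 75.5 and 73.3 on array 2. The mutant levels lay just above the wildtype levels. The Cy3 signals were brighter than 84.7% of negative controls on array 1 and 80.9% on array 2, and the wildtype signal on array 1 did not carry the flag. Fos therefore counted as detected through the mutant pool alone. The log2 ratio was 0.07 and 0.04, a mean of 0.05 ± 0.02 against a pooled SD of 0.21 for genes of like brightness. A difference of Fos between the pools was not detectable at this signal.

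Jun, the other core AP-1 subunit, was likewise dim. Its normalised levels were 83.3 in the mutant and 94.9 in the wildtype pool on array 1, and 74.2 and 87.5 on array 2. Both mutant levels were below both wildtype levels, and the Cy3 signal of the mutant pool on array 2 exceeded 67.8% of negative controls. The mean log2 ratio was -0.21 ± 0.04, or 1.16-fold lower, about as far from 0 as the pooled SD of 0.22 for genes of like brightness. Junb, a Jun relative that often restrains it, had normalised levels of 98.4 and 105 on array 1 and of 89.5 and 94.5 on array 2, the mutant first. The pools overlapped, with a mean log2 ratio of -0.09 ± 0.01. The dimmer Junb probe gave -0.13 and -0.07, on the same side of 0.

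The means of Egr1 and Egr2, the zinc finger members, lay within the pooled SD of genes of like brightness. Egr1 had normalised levels of 136 in the mutant and 130 in the wildtype pool on array 1, and of 115 and 93.6 on array 2. The levels overlapped between the pools and both ratios lay above 0, at 0.07 and 0.30. The mean of 0.18 ± 0.16 was the highest of the 10 genes, and it was within the pooled SD of 0.20 for genes of like brightness. The software's ratio put Egr1 higher, at 0.19 and 0.80, a mean of 0.50. Egr2 had normalised levels of 88.8 and 84.1 on array 1 and of 78.8 and 82.1 on array 2, the mutant first. Its ratios of 0.08 and -0.06 lay on both sides of 0, with a mean of 0.01 ± 0.10. By the software's ratio Egr2, like Egr1, lay above 0 on both arrays, at 0.30 and 0.19, a mean of 0.25.

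Dusp1, the MAP kinase phosphatase, had the second lowest mean among the 10 in the processing reported, and its probes disagreed. Jun was lower than Dusp1 with an offset of 16 (-0.36 against -0.35), by the software's ratio (-0.48 against -0.37) and with the median over probes (-0.21 against -0.08). On array 2 alone Jun (-0.24), Fosb (-0.16) and Ier2 (-0.11) were all lower than Dusp1 (-0.10). The brighter Dusp1 probe, at chr17:25095332-25095391 in the files' coordinates, gave normalised levels of 116 in the mutant and 155 in the wildtype pool on array 1, and of 136 and 146 on array 2. The mutant levels lay below the wildtype levels, with log2 ratios of -0.43 and -0.10 and a mean of -0.26 ± 0.23. The dimmer probe, at chr17:25093088-25093147, had -0.11 on array 1 and 0.31 on array 2. With the median over both probes the log2 ratio of Dusp1 was -0.08. Ier3, a stress-inducible gene linked to cell survival, had normalised levels of 86.6 and 103 on array 1 and of 98.6 and 95.5 on array 2, the mutant first. Its pools overlapped, and its ratios of -0.25 and 0.05 lay on both sides of 0, with a mean of -0.10 ± 0.21.

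**Figure D2:**
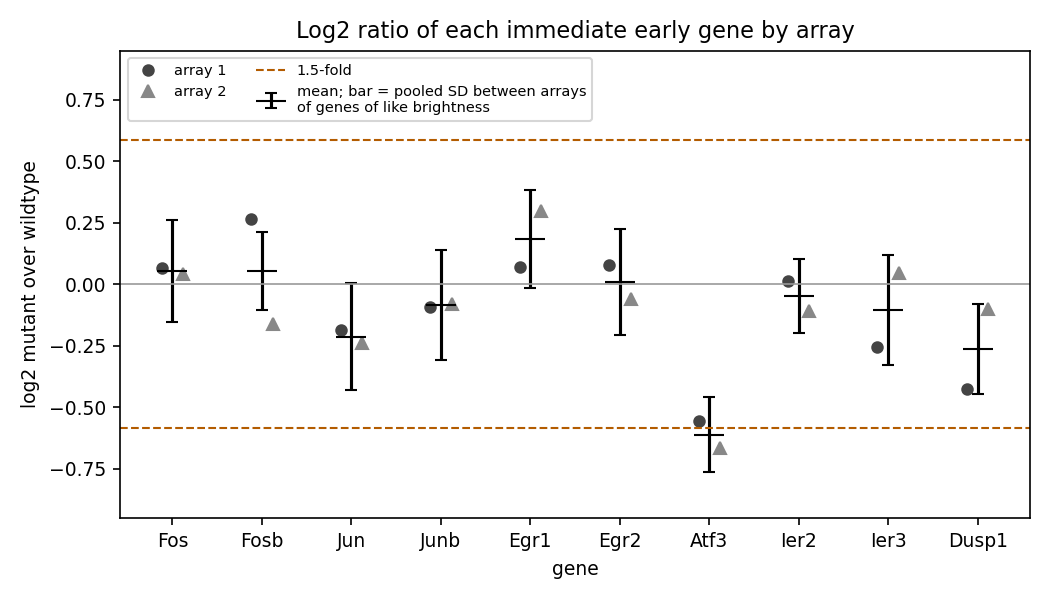
Log2 ratio of mutant over wildtype (vertical axis) of the probe that stands for each gene (horizontal axis), with circles for array 1, triangles for array 2 and a tick for their mean; the bar is the pooled SD between arrays of all detected genes within 0.25 log2 units of the same brightness. Atf3 lies at the 1.5-fold line drawn dashed, at -0.56 and -0.67, and the means of the other 9 genes lie between -0.26 and 0.18.

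As a group the 10 genes did not move together. Jun, Junb, Atf3 and Dusp1, 4 of the 10, lay below 0 on both arrays, a state shared by 24.4% of all detected genes. Fos and Egr1 lay above 0 on both arrays, as did 23.3% of detected genes, and the other 4 were split. Median centring left Atf3 and Dusp1 below 0 on both arrays and Egr1 above. By the software's ratio Jun, Atf3 and Dusp1 lay below and Fos, Egr1 and Egr2 above, and with the median over probes Dusp1 was split. Levels of the mutant pool lay wholly below those of the wildtype pool for Jun, Atf3 and Dusp1 (10.7% of detected genes). They lay wholly above for Fos (9.55% of detected genes), which counted as detected through the mutant pool alone. Its nearest levels were 75.5 in the mutant pool on array 2 and 75.3 in the wildtype pool on array 1. The order for Fos is therefore not read as a direction. The median log2 ratio was -0.07 over the 10 genes and 0.00 over all detected genes, and without Atf3 it was -0.05 over 9 genes. The means of Atf3 and Dusp1 lay 4.02 and 1.45 times the pooled SD of genes of like brightness from 0, and the other members within it. The share of all detected genes beyond that SD was not counted, so no excess among the members can be read from this. Of the 13 probes 3, those of Ier2 and Atf3 and the brighter one of Fosb, were brighter than every negative control spot of their dye and array in all 4 signals. The rule is strict for the whole array. In Cy3 the median gene spot read 150 on array 1 and 146 on array 2, below the brightest negative control at 182 and 172.

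**Figure D3:**
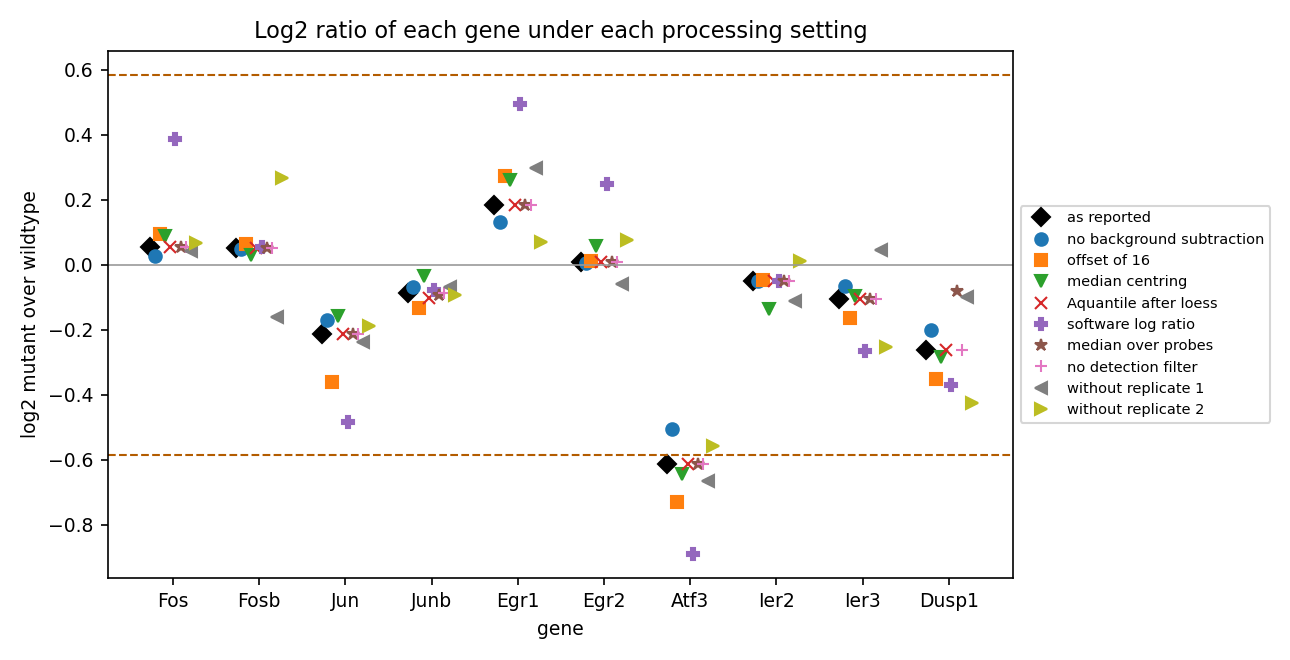
Log2 ratio of mutant over wildtype of each gene (vertical axis) under the processing reported (black diamonds) and 9 alternatives, with the 1.5-fold thresholds dashed. Atf3 lies between -0.89 and -0.51 in every setting and Jun between -0.48 and -0.16, whereas Fosb, Egr2, Ier2 and Ier3 lie on both sides of 0.

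Other genes of the same response, read from lists chosen by function, gave few that passed the size rule. Of 16 other AP-1 and related leucine zipper genes all were detected and none passed, with a median of -0.01. The farthest were Atf4, a translationally controlled factor of the integrated stress response, at -0.27 ± 0.13 and Jdp2, which dimerises with Jun, at 0.25 ± 0.04. Of 17 detected further immediate early transcription factor genes none passed (median -0.03). Cebpd, a leucine zipper factor of the acute-phase response, had -0.49 ± 0.14, and Btg2, an antiproliferative gene, had -0.35 ± 0.03. Of 29 detected immediate early effector genes none passed (median -0.04), although Gadd45g, a growth arrest gene, came close at -0.62 and -0.54, a mean of -0.58 ± 0.06. Ccn1, a matrix protein induced by serum, had -0.40 ± 0.11.

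The dual-specificity phosphatases, relatives of Dusp1, held 1 gene past the rule. Dusp4, which acts on ERK in the nucleus, was 1.79-fold lower in the mutant pool, at -0.89 on array 1 and -0.79 on array 2 (mean -0.84 ± 0.07), and the other 7 detected genes did not pass (median of the 8 -0.02). Median centring ended its call, at -0.41 and -1.44. None of 22 detected upstream kinases and promoter-bound factors passed (median 0.00). The ternary complex factor gene Elk3, whose product binds beside serum response factor, had -0.42 ± 0.11, and Rps6ka3, a kinase below ERK, had 0.40 ± 0.02. Nab1 and Nab2, corepressors of the EGR factors, had 0.01 ± 0.14 and 0.13 ± 0.28.

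The stress lists contained no gene past the rule. Of 9 detected heat shock genes the median was -0.02, with Hspa1a, an inducible chaperone, at -0.36 ± 0.30 and Hspb1, a small chaperone, at -0.33 ± 0.09. Hspa8 had -0.86 on array 1 and 0.73 on array 2, a mean of -0.06 ± 1.12. It exceeded 1.5-fold on each array, but in opposite directions, so the rule did not count it. Of 10 genes that ATF4 or the unfolded protein response is known to induce, the median was -0.06 and 6 had ratios under 0 on each array. Herpud1, which acts in the removal of misfolded proteins from the endoplasmic reticulum, had -0.27 ± 0.07, and Xbp1, a leucine zipper factor of that response, had -0.26 ± 0.01. Of all genes named on these lists, Ptgs2, Elk1 and Map2k1 were on the array but not detected, and Klf4, Dusp5, Dusp7 and Hspa1b matched no probe by name.

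**Figure D4:**
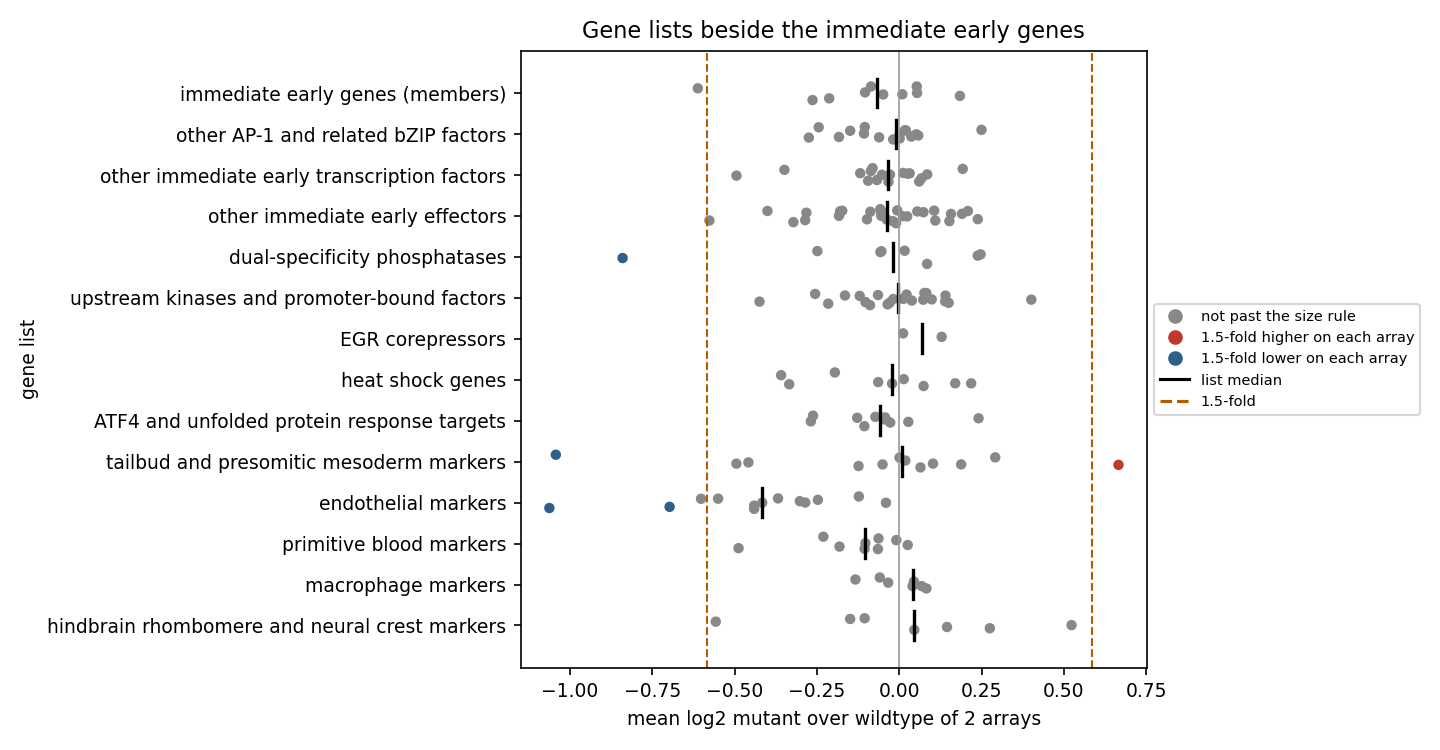
Mean log2 ratio of mutant over wildtype over 2 arrays (horizontal axis) of each detected gene in 14 lists (rows), with list medians as black ticks and the 1.5-fold thresholds dashed; blue genes were at least 1.5-fold lower and red genes at least 1.5-fold higher on each array, and the rest are grey. The 10 immediate early genes spread from -0.61 to 0.18 around a median of -0.07, and the endothelial markers have a median of -0.42.

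Markers of the cells that the dissected piece could hold were read beside Atf3. In bulk tissue, fewer cells of a type and less RNA per cell cannot be told apart. All 12 tailbud and presomitic mesoderm markers were detected, with a median of 0.01; Dll1 was higher (0.67 ± 0.02) and Cyp26a1 lower (-1.04 ± 0.08), and T (-0.49 ± 0.03) and Wnt3a (-0.46 ± 0.05) did not reach the rule. Their summed normalised level was 11448 in the mutant and 13651 in the wildtype pool on array 1, and 11255 and 13255 on array 2. The mutant sum was lower on each, but a sum gives bright genes the most weight. T was the brightest of the 12, at a mean log2 intensity of 12.6. Of the 12, 4 lay below 0 on both arrays and 4 above 0 on both. The brightest genes in the sums that follow were Egfl7 (12.6), Hbb-y (15.3) and Hoxb1 (11.2). Of 13 detected endothelial markers 12 had ratios under 0 on each array and the median was -0.42, with Cldn5 (-1.06 ± 0.21) and Sox18 (-0.70 ± 0.08) past the rule. Sox18 had -0.58 and -0.66 without background subtraction, short of the rule on array 1, and -0.27 and -1.23 with median centring, which also ended the call of Dll1 (1.13 and 0.06). The endothelial markers' summed normalised level was 9582 in the mutant and 13660 in the wildtype pool on array 1, and 9017 and 12228 on array 2, while Flt4 and Erg were not detected. Among 9 primitive blood markers 5 lay below 0 on both arrays (median -0.10, with Tal1 at -0.49 ± 0.20 and Alas2 at -0.23 ± 0.09). Their summed level was 59026 and 59065 on array 1 and 55963 and 65711 on array 2, the mutant first. Macrophage markers had a median of 0.04 over 7 detected genes, with Fcer1g at -0.13 ± 0.18 and Cd68 at 0.08 ± 0.01; Adgre1, Ptprc and Aif1 were not detected. The 7 detected genes listed as hindbrain and neural crest markers had a median of 0.05, with Ets1 at -0.56 ± 0.07 and Hoxb1 at 0.52 ± 0.03. The summed level of the 7 was higher in the mutant pool on each array (4861 against 3890 and 4141 against 3517). Whether Hoxb1 or Ets1 marks these cells in posterior tissue was not tested, so neither value is read as a change in them. The part of these marker differences in the ratio of Atf3 was not tested.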

How the data were processed

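Dual-colour arrays were read from the files of the scanner software. The deposited intensity values are mean spot brightness in Cy3 and Cy5 and the median local background, uncorrected per the file headers. The software's own log10 ratio (Cy5 to Cy3, detrended and LOWESS-normalised) is also deposited, and the deposited p-value is its error model for a spot on 1 array, per the file headers. Agilent Feature Extraction is version 9.5.3 by the submitters' processing notes and 7.5.1 by the file headers. Signals were corrected with normexp (offset 50) and normalised by loess within arrays, control spots at weight 0, in limma 3.58.1 (R 4.3.3). Spots flagged as non-uniform were left out (205 on array 1, 90 on array 2), and the labelled dyes set the direction of each ratio, mutant over wildtype. The brightest detected probe stood for a gene. An offset shrinks the ratios of dim genes. Names came from the accessions in the files and RefSeq (GRCm38.p6, names only for probes): 19435 probes were named by accession, 3636 by symbol and 2974 by synonym, and the others kept the file's name, 544 of them because several genes matched. Normalised levels per pool add Aquantile scaling. The steps were tested on simulated data, with changes planted only in brighter spots. Recovery of changes near the negative controls, where most members lie, was not tested. The members, gene lists, rules and alternatives were chosen with earlier results of these data known. From each list the genes past the size rule were named, or else the 2 farthest from 0. T, Wnt3a and Hspa8 were named after their values were seen. Levels of different probes were summed within the marker lists, where bright probes weigh most. No ratio was formed between the levels of different probes. Gene models were not used to place probes in exons.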

Additional observations from a re-analysis of the deposited data

How the results depend on the processing

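Every ratio is by construction a contrast of both pools on the same array, so the pools were already paired by array. With 1 pool per genotype no further pairing was possible, and replicate numbers only count arrays. Under the 9 alternatives that give a ratio, the median of the 10 genes stayed between -0.09 and -0.04. Atf3, Jun, Junb and Dusp1 had means below 0 and Fos and Egr1 above 0 in each of the 9, but not on both arrays in each: the 4 members below 0 on both became 2 with median centring, where Jun, Junb and Fos were split, and 3 with the software's ratio (Junb split) and with the median over probes (Dusp1 split). With 1 array left out, Fosb, Egr2, Ier2 and Ier3 changed sign. No member passed the size rule as higher under any alternative. As lower, 1 member, Atf3, passed with an offset of 16 (-0.65 and -0.81), with the software's ratio (-0.77 and -1.01), at 1.3-fold and by the mean of both arrays; leaving out 1 array gave 0 and 1. Leaving the background in gave Atf3 -0.47 and -0.54, and median centring gave it -0.27 and -1.02. The counts of all genes, 55 higher and 60 lower, became 38 lower without background subtraction, 91 lower with an offset of 16, 167 higher and 190 lower by the software's ratio, 27 higher and 16 lower after median centring, 20 higher and 7 lower under the 2-fold rule, 140 higher and 196 lower under the 1.3-fold rule and 95 lower by the mean of both arrays. Leaving out an array gave 93 to 321 higher and 128 to 467 lower. The cause of these changes was not tested. By the software's ratio Egr1 had 0.50, Fos 0.39, Egr2 0.25 and Jun -0.48. Most members' signals lay near those of the negative controls, which limits what a ratio near 0 can show.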
